A study of Mus musculus with 3 samples.

Results

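The TGF-beta pathway was described here through 10 genes of the 55536 in the gene tables. The genes were chosen by name, with earlier results of these data known. They are the ligand gene Tgfb1, the receptor genes Tgfbr1, Tgfbr2 and Tgfbr3, the signal transducer genes Smad2, Smad3, Smad4 and Smad7, and the corepressor genes Ski and Skil. All 10 are protein-coding and were found under 1 gene identifier each. The libraries were total RNA from primary T cells of the spleen (the labels carry the tag m.CD3_spleen) of female, virgin B6CASTF1/J mice of 66 days, F1 animals with C57BL/6 on the maternal and CAST Eij on the paternal side. There were 3 libraries, replicates 1, 2 and 3, each from 300 ng of RNA with ERCC spike-ins, and all 3 form 1 group with no treatment in the labels. The labels place 3 biosample records under 1 donor record, so SDs and p-values cover only how these samples vary, and that variation may be technical. A single group leaves comparisons of genes inside a library, and of libraries with each other.

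TGF-beta is secreted bound to its own propeptide in a latent form and acts after release. The freed ligand binds the type II receptor, which phosphorylates the type I receptor, and this in turn phosphorylates the receptor-activated SMADs, which enter the nucleus with the common SMAD to change transcription. In T cells the pathway is known for restraining activation and effector functions and for its part in forming regulatory and tissue-resident cells.

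The gene tables held 16.88, 14.99 and 16.20 M estimated counts in replicates 1, 2 and 3, and the 10 genes took 0.139%, 0.139% and 0.138% of them. Levels are TPM, the deposited unit of transcript abundance, which is scaled for effective transcript length and for depth, so that they can be compared between genes. A gene was taken as detected at 1 TPM or more in all 3 libraries, which 9851 of 22028 protein-coding genes reached (44.7%). All 10 pathway genes were detected, and 9 of 10, all but Tgfbr1, reached 10 TPM in all 3 libraries, against 25.4% of protein-coding genes. Their median of mean TPM was 30.4, against 0.487 over all protein-coding genes, of which 7024 were at 0 throughout. Because earlier results were known when the 10 genes were chosen, their detection is a description and not an independent finding. In bulk RNA, fewer cells of a type and less RNA per cell cannot be told apart, so each level is an average over the cells of a library.

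The T-cell label was checked against marker genes. All 13 T-cell markers exceeded 10 TPM in every library, and their summed level lay between 3195 and 3457 TPM, led by Trbc2 and Trac of the T-cell receptor at 649.6 ± 43.3 and 492 ± 16.4 TPM (SD, n = 3). Summed levels of other cells' markers were 12.0 to 20.6 TPM for 8 B-cell genes, 36.6 to 47.2 TPM for 12 monocyte and macrophage genes, 7.18 to 9.37 TPM for 8 neutrophil genes, 4.34 to 7.40 TPM for 10 platelet and megakaryocyte genes and 43.5 to 97.8 TPM for 8 erythroid genes. Of the 12 stromal and endothelial genes, Pecam1, which leukocytes also express, held 51.8 ± 2.16 TPM of a sum of 52.2 to 56.3 TPM, and Lum and Acta2 were at 0 in every library. Foxp3, which marks regulatory T cells, a type that can display and activate TGF-beta, was at 8.68 ± 0.319 TPM. The part of these other cells in the levels below was not tested.

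Among the ligand genes, only Tgfb1 was detected. Tgfb1 (chromosome 7, 25687002 to 25705077, mm10) encodes the TGF-beta isoform typical of immune cells and was at 50.46, 46.34 and 49.73 TPM in replicates 1, 2 and 3 (48.8 ± 2.20, SD, n = 3). This level was above that of 87.1% of the detected protein-coding genes. Tgfb2, a ligand gene known mainly from development, was at 0.89, 0.33 and 0.07 TPM, and Tgfb3 at 0.13, 0.12 and 0.09 TPM. The 3 values of Tgfb1 lay far above all values of the other 2 genes. On the log2(TPM + 1) scale, which understates differences from genes near 0, Tgfb1 was higher than Tgfb3 by 5.48 ± 0.07 and higher than Tgfb2 by 5.16 ± 0.40, in 3 of 3 libraries each. The exact two-sided sign-flip permutation test over the libraries gave p = 0.25, the minimum for 3 libraries, or 0.278 after Benjamini-Hochberg adjustment over the 10 gene pairs compared. The same p and adjusted p hold for the gene-level TPM ratio of every pair given below, except where another is printed.

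The receptor genes spanned the whole range of the pathway, with the type II receptor at the top and the type I receptor at the bottom. Tgfbr2 (chromosome 9, 116084293 to 116175360, mm10), which encodes the ligand-binding type II receptor kinase, was at 65.25, 66.27 and 64.86 TPM (65.5 ± 0.728, SD, n = 3), above 91.3% of detected protein-coding genes. Tgfbr1 (chromosome 4, 47353222 to 47414931), which encodes the type I receptor kinase that phosphorylates SMADs, was at 11.35, 8.64 and 9.48 TPM (9.82 ± 1.39), above 39.0% of them. Tgfbr3 (chromosome 5, 107106570 to 107289629) encodes betaglycan, a co-receptor without a kinase that presents ligand, and was at 17.84, 13.31 and 15.94 TPM (15.7 ± 2.27). No values of the 3 receptor genes overlapped. Within libraries the log2 ratio of TPM of Tgfbr2 to Tgfbr1 was 2.52, 2.94 and 2.77, a mean of 2.75 ± 0.21 or 6.71-fold. Tgfbr3 exceeded Tgfbr1 by 0.68 ± 0.07 on the same scale, or 1.60-fold, in 3 of 3 libraries. Counting only protein-coding transcript entries, the order no longer held in every library. Tgfbr3 was then at 10.32, 11.89 and 9.71 TPM and Tgfbr1 at 11.35, 8.64 and 9.06 TPM, so replicate 1 had the opposite order, and the mean log2 ratio was 0.14 (exact two-sided sign-flip permutation p = 0.75).

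**Figure D1:**
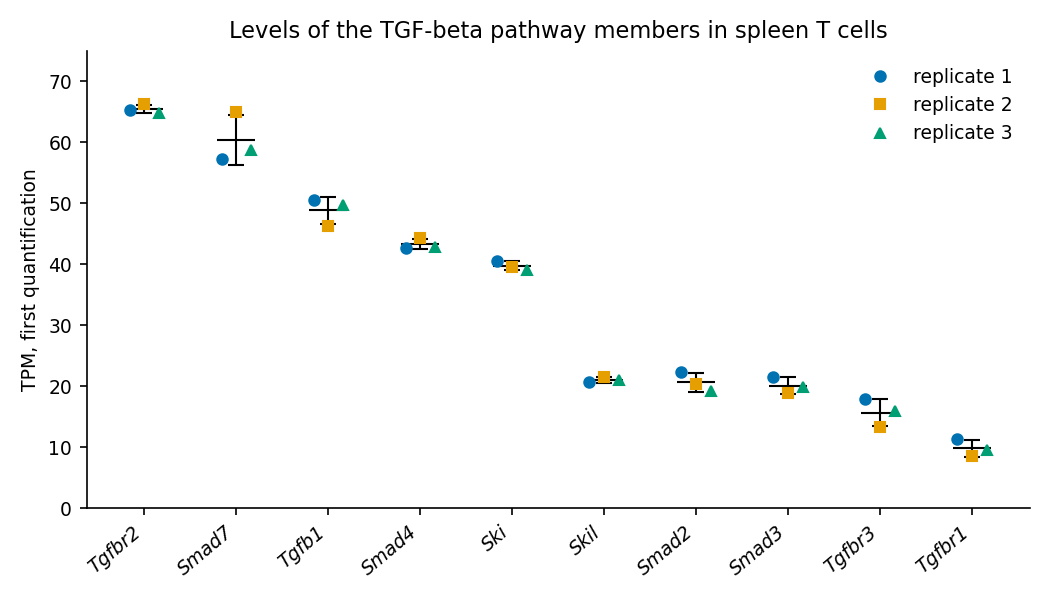
Levels of the 10 genes in TPM (vertical axis, linear) in each of the 3 libraries (points), with the mean (horizontal line) and SD (bars), ordered by mean. Tgfbr2 and Smad7 share the top of the order at 65.5 and 60.3 TPM, a gap separates Ski at 39.8 from Skil at 21.1 TPM, and Tgfbr1 is lowest at 9.82 TPM.

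The type II receptor was split between 2 coding transcript entries that differ in the extracellular part of the protein. The longer form, known as TβRII-B, carries an extra exon of 75 bases (25 codons) at chr9:116158271-116158345 on the minus strand of mm10. This exon is shown in capitals with 30 bases of coding sequence in lower case on each side, as read from GENCODE M21, because it is the base of the split.
Tgfbr2 75-base segment: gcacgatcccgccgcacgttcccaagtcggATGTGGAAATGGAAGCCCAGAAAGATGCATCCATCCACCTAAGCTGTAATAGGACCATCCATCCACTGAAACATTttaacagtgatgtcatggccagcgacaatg

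Entry Tgfbr2-202, which holds this exon, took 36.8%, 37.1% and 34.8% of the gene's TPM in replicates 1, 2 and 3 (36.2 ± 1.22, SD, n = 3), and Tgfbr2-201, which lacks it, took the remainder, 63.8 ± 1.22%. The shorter form therefore led in all 3 libraries, by more than the spread between them. In the second quantification, a separate set of transcript estimates deposited for the same reads, the exon's share was 32.0 ± 0.948%. These shares are estimates for whole transcript entries and not counts of reads across the exon's junctions. The entries also differ in the length of the last exon, at 1629 bases in Tgfbr2-201 and 6265 bases in Tgfbr2-202, so reads from the 3′ end enter the split too.

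The type I receptor has a smaller alternative segment, 12 bases or 4 codons at chr4:47393247-47393258 on the plus strand, just before the membrane-spanning part of the protein. It is shown in capitals between 30 flanking bases on each side.
Tgfbr1 12-base segment: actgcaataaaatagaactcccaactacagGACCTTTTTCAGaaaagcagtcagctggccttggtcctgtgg

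Entries with the 12 bases (Tgfbr1-201 and Tgfbr1-203) held 79.4%, 86.8% and 86.2% of the TPM of all entries that span the site in replicates 1, 2 and 3 (84.1 ± 4.12, SD, n = 3). The second quantification gave 80.6 ± 10.2%. Tgfbr1-201 alone took 70.1 ± 1.89% of the gene's TPM, Tgfbr1-205, which skips the segment, 15.7 ± 4.29%, and Tgfbr1-203 12.8 ± 4.44%. Inclusion was thus the majority form in all 3 libraries by either table, with a wide spread between libraries in the second.

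Tgfbr3 had the lowest share of TPM on coding entries among the 10 genes. The share was 57.8%, 89.3% and 60.9% in replicates 1, 2 and 3 (69.4 ± 17.4, SD, n = 3). Over 9826 detected protein-coding genes the median share was 73.7%, with quartiles at 52.9% and 94.1%, so the mean for Tgfbr3 lay between the quartiles, below the median. Its complete coding entry Tgfbr3-201 was at 9.26, 11.03 and 9.13 TPM, the retained-intron entry Tgfbr3-204 at 4.38, 1.40 and 4.45 TPM and the non-coding Tgfbr3-203 at 3.14, 0.02 and 1.78 TPM. Replicate 2 was thus lowest for both non-coding entries and highest for the coding one. The gene's estimated counts, at 1196, 1054 and 1116, varied less. Their coefficient of variation after scaling to library size was 1.45%, against 14.5% for the gene's TPM, and the counts did not show the spread seen in TPM, which also depends on the lengths of the entries that the reads are assigned to. The second quantification put the coding share at 55.8 ± 12.5%.

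The 4 SMAD genes differed in level, with the inhibitory Smad7 and the common Smad4 above the pair that the receptor activates. This is an order of genes and not of roles, since Smad6, also inhibitory, was at 0.03 TPM. Smad7 (chromosome 18, 75367529 to 75395935, mm10), whose product blocks the type I receptor and recruits ubiquitin ligases to it, was at 57.32, 65.00 and 58.67 TPM (60.3 ± 4.10, SD, n = 3). Smad4 (chromosome 18, 73639009 to 73703780), the common partner of all receptor-activated SMADs, was at 42.72, 44.26 and 42.87 TPM (43.3 ± 0.849). Smad2 (chromosome 18, 76241580 to 76310963) was at 22.33, 20.39 and 19.25 TPM (20.7 ± 1.56), and Smad3 (chromosome 9, 63646767 to 63757994) at 21.54, 18.86 and 19.86 TPM (20.1 ± 1.35). Every value of Smad7 and Smad4 lay above every value of Smad2 and Smad3, and the latter pair overlapped.

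Within libraries, Smad4 exceeded Smad2 by 1.07 ± 0.12 (2.10-fold) and Smad3 by 1.11 ± 0.12 (2.16-fold) on the log2 scale of TPM. Smad7 exceeded Smad2 by 1.55 ± 0.16 (2.92-fold) and Smad3 by 1.59 ± 0.19 (3.00-fold). All 4 differences were positive in 3 of 3 libraries. The log2 ratio of Smad3 to Smad2 was -0.05, -0.11 and 0.05 in replicates 1, 2 and 3, with a mean of -0.04 ± 0.08, and the libraries did not separate it from 0 (exact two-sided sign-flip permutation p = 0.5, adjusted p = 0.5). Its sign also depended on the unit, at 0.04 with posterior mean TPM and 0.41 with CPM (scaled counts that are not divided by length).

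**Figure D2:**
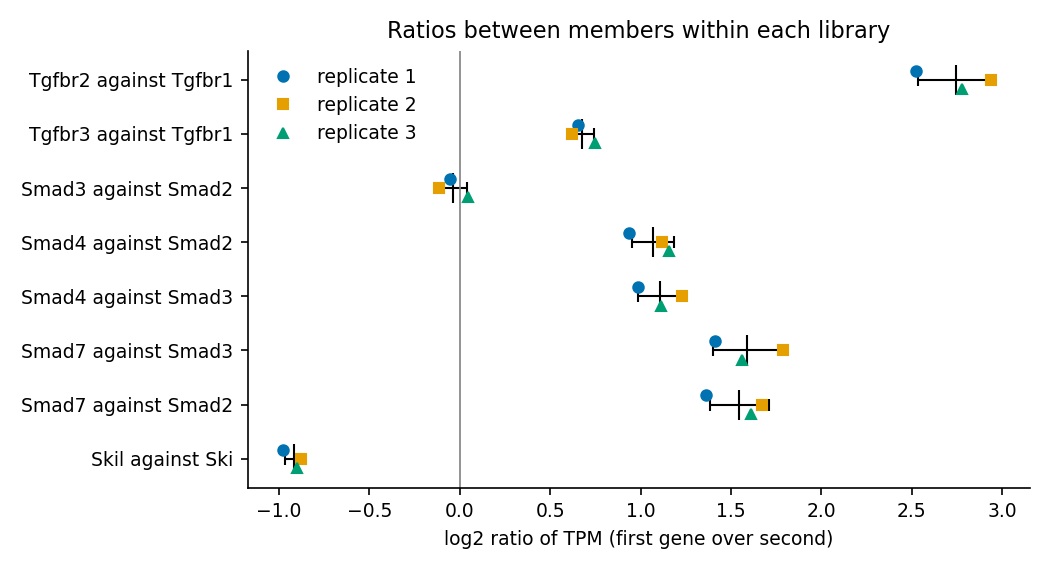
Log2 ratios of TPM between pairs of the 10 genes (horizontal axis) in each of 3 libraries (points), with mean and SD (bars) and 0 as the grey line. Tgfbr2 against Tgfbr1 is farthest from 0 at 2.75, the pairs with Smad4 or Smad7 lie at 1.07 to 1.59, and the libraries fall on both sides of 0 for Smad3 against Smad2.

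Smad3 and Smad4 were each carried mostly by 1 coding entry, Smad3-201 at 83.7 ± 3.84% and Smad4-201 at 78.9 ± 0.702% of the gene's TPM (SD, n = 3), and so was Smad7 by Smad7-201 at 78.3 ± 5.23%. Smad4-202 followed with 14.4 ± 2.20% and Smad7-202 with 15.1 ± 5.38%. The second quantification kept these leading entries at lower shares, Smad3-201 at 65.7 ± 2.70%, Smad4-201 at 60.9 ± 6.09% and Smad7-201 at 68.2 ± 3.63%. The minor entries differed between the tables. Smad4-202 took 27.6 ± 0.789% in the second, Smad7-202 7.38 ± 1.44%, and Smad7-204, which was listed at 0 in the first, 23.7 ± 1.13%. Smad3-205, a coding entry with an incomplete model, took 17.9 ± 4.05% in the second and 2.10 ± 3.64% in the first. In the first quantification Smad7-202 was at 5.93, 13.62 and 8.23 TPM, while Smad7-201 stayed between 46.68 and 47.44 TPM, so the higher TPM of the gene in replicate 2 lay in the minor entry. Smad2 was the most divided of the 4, with Smad2-201 at 35.9 ± 7.79%, the incomplete coding model Smad2-206 at 23.1 ± 1.63%, Smad2-205 at 22.9 ± 1.17% and Smad2-203 at 14.8 ± 4.59%. Smad2-206 took the lead in the second quantification with 29.8 ± 5.09%.

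An exon of 90 bases in Smad2 (chromosome 18, 76286860 to 76286949, plus strand) lies in the DNA-binding domain, and the form without it is known to bind DNA directly as SMAD3 does. Entries with this exon held 80.3%, 76.5% and 89.3% of the gene's TPM in replicates 1, 2 and 3 (82.0 ± 6.60, SD, n = 3) and 72.8 ± 4.50% in the second quantification. Forms with the exon therefore led in every library of both tables. Of the entries without it, Smad2-203 was at 4.41, 2.83 and 2.06 TPM, and Smad2-202 was listed at 0 in replicates 1 and 3 and at 1.97 TPM in replicate 2.

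Of the corepressor genes, whose products SKI and SnoN bind SMADs and hold their target genes inactive, Ski was the higher. Ski (chromosome 4, 155154075 to 155222592, mm10) was at 40.59, 39.63 and 39.06 TPM (39.8 ± 0.773, SD, n = 3). Skil (chromosome 3, 31095058 to 31122577), which encodes SnoN and is itself a gene that TGF-beta induces, was at 20.65, 21.57 and 20.97 TPM (21.1 ± 0.467). Their values did not overlap in any library. The log2 ratio of TPM of Skil to Ski was -0.97, -0.88 and -0.90, a mean of -0.92 ± 0.05, which puts Skil 1.89-fold lower in 3 of 3 libraries.

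Skil has 2 alternative segments. One, of 138 bases (46 codons) at chr3:31113503-31113640 on the plus strand, is present in SnoN and absent from the shorter form known as SnoN2. The other, of 240 bases (80 codons) at chr3:31097466-31097705 on the plus strand, is skipped by entry Skil-202. Both start with GT and end with AG. They are shown in capitals, with 30 flanking bases on each side, because they separate the proteins that the entries encode.
Skil 138-base segment: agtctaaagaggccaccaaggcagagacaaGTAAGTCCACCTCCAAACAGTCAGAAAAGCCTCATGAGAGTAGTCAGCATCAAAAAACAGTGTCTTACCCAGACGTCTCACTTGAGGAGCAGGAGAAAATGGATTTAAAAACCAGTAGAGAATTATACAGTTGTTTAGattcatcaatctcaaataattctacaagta
Skil 240-base segment: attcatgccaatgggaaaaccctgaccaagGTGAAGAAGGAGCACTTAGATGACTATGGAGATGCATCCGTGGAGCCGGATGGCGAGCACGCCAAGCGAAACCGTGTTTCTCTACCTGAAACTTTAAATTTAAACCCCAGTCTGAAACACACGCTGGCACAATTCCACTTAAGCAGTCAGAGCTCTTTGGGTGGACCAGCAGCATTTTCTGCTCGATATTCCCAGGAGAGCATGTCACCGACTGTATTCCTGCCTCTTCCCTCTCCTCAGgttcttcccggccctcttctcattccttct

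Among the entries that decide the 138-base segment, those with it held 45.6%, 45.6% and 35.9% of TPM in replicates 1, 2 and 3 (42.4 ± 5.58, SD, n = 3). In the second quantification the share was 61.1%, 58.8% and 45.1% (55.0 ± 8.62). The tables thus put the majority form on different sides, and replicate 3 was lowest in both. The largest entry, Skil-204, which lacks the segment, took 40.2 ± 2.72% of the gene's TPM and led in all 3 libraries, but in the second quantification it took 22.5 ± 1.61% and led in 1 of 3. Skil-201, which has the segment, was at 3.26, 2.47 and 0.17 TPM, and Skil-203, which has it too, took 24.6 ± 2.53%. The deposited bounds of Skil-201 overlapped between libraries, at 1.25 to 6.91, 1.08 to 5.41 and 0.188 to 3.10 TPM. The 240-base segment was included at 94.3 ± 0.451%, and at 91.7 ± 2.10% in the second quantification. A retained-intron entry, Skil-206, held a further 14.9 ± 1.26% of the gene's TPM.

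By the estimates of the first quantification, Ski rested on 1 entry, Ski-201, at 100% of the gene's TPM in every library. The second quantification gave 24.1 ± 5.73% to Ski-202. The entries differ by 156 bases (52 codons) at chr4:155222202-155222357 on the minus strand, shown in capitals between 30 flanking bases.
Ski 156-base segment: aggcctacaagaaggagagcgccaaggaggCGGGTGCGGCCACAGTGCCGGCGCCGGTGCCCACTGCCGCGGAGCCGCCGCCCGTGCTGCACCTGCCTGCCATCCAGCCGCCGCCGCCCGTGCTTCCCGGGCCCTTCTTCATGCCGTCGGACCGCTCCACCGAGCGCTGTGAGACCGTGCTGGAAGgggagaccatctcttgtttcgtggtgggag

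This segment starts with CG and ends with AG, and 75.6% of its bases are G or C. Its inclusion was 100% in all 3 libraries of the first quantification and 69.9%, 76.4% and 81.3% in those of the second. The entry without the segment thus appears in 1 table and is listed at 0 in the other. That 0 is not exact, since the deposited upper bounds of Ski-202 in the first quantification were 3.87, 4.36 and 4.33 TPM.

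**Figure D3:**
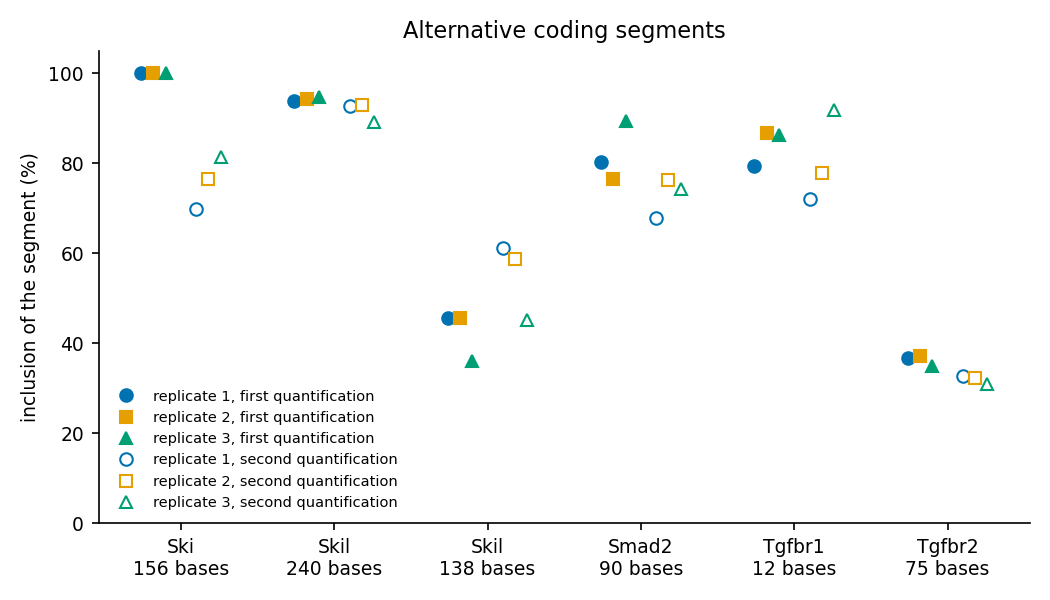
Inclusion in percent of 6 alternative coding segments (vertical axis) in each library, with filled points for the first and open points for the second quantification. The Tgfbr2 exon lies between 30.9% and 37.1% in all estimates, while the tables differ for the Ski segment and for the 138-base segment of Skil.

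Across the 10 genes, the share of TPM on protein-coding entries had a median of 93.6%. Tgfbr2, Ski and Smad2 were at 100%, Tgfbr1 at 98.5 ± 2.62%, Smad7 at 94.0 ± 0.778%, Smad4 at 93.3 ± 2.90%, Smad3 at 88.1 ± 3.31%, Tgfb1 at 85.2 ± 2.77% and Skil at 85.1 ± 1.26% (SD, n = 3). All entries of Tgfbr2 (2) and Smad2 (7) are annotated as coding, so their 100% is fixed by the annotation and not measured. Tgfb1 has a single coding entry, Tgfb1-201, and its remainder lay mainly on the retained-intron entries Tgfb1-203 (8.29 ± 4.23%) and Tgfb1-204 (5.20 ± 0.547%). Among all detected protein-coding genes, 19.7% were at 100%, which also includes genes whose entries are all coding. In the second quantification the median of the 10 genes was 89.7%. Tgfbr1 was there at 80.8 ± 6.29%, with 19.2 ± 6.29% of its TPM on the non-coding Tgfbr1-204, which held 1.51 ± 2.62% in the first. By mean share, the same entry led in both quantifications for 9 of 10 genes, all but Smad2, although Skil-204 led in only 1 library of the second.

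**Figure D4:**
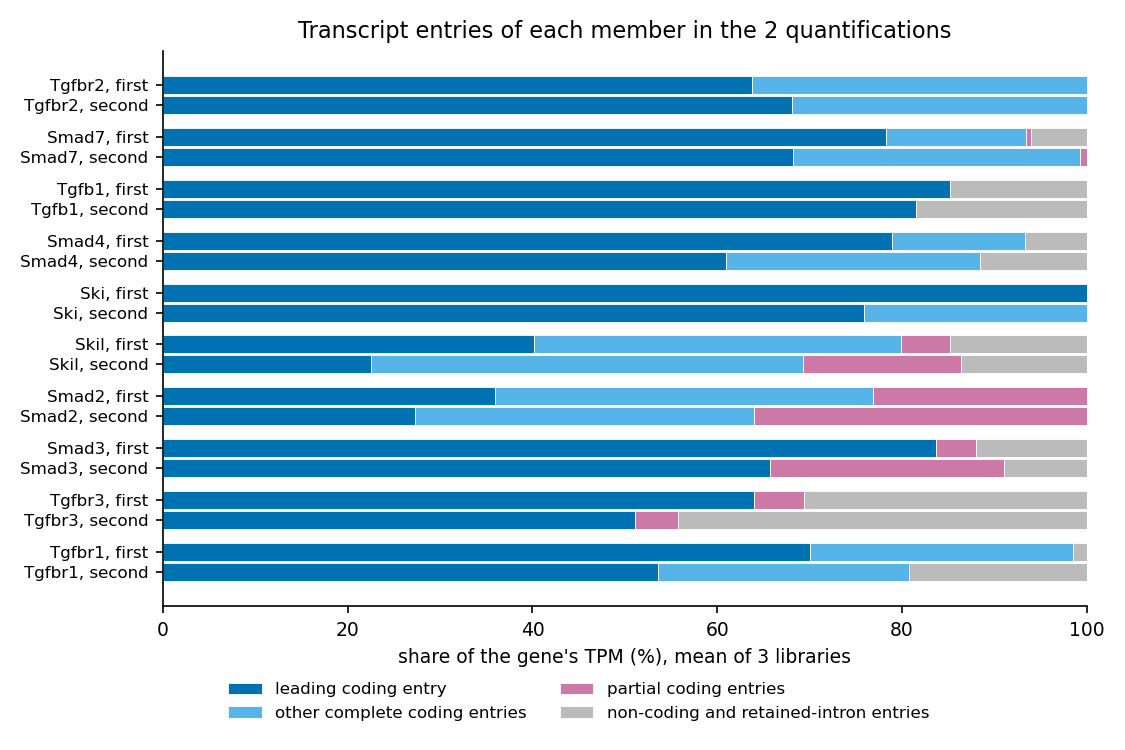
Share of each gene's TPM (horizontal axis, percent, mean of 3 libraries) on the leading coding entry, other complete coding entries, coding entries with an incomplete model, and non-coding or retained-intron entries, in the first and the second quantification. Tgfbr3 has the largest non-coding part of the first quantification, and Skil and Smad2 are divided among the most coding entries.

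Ordered by mean TPM, the genes ran Tgfbr2, Smad7, Tgfb1, Smad4, Ski, Skil, Smad2, Smad3, Tgfbr3 and Tgfbr1. The ranges over the libraries overlapped for 3 of the 9 neighbouring pairs, Tgfbr2 with Smad7, Skil with Smad2 and Smad2 with Smad3, and did not for the other 6. In the second quantification Smad7 came first at 85.2 ± 3.74 TPM and Tgfbr2 second at 79.3 ± 2.74 TPM. Smad2 (33.2 ± 4.43 TPM) and Smad3 (28.8 ± 2.59 TPM) then ranked above Skil (27.0 ± 1.56 TPM), and the other genes kept their places. All changes of place were among neighbours whose ranges overlapped in the first quantification. The separated pairs were not the same in every setting. In the second quantification Tgfb1 (51.4 to 64.6 TPM) and Smad4 (53.3 to 63.1 TPM) overlapped, while Smad7 (lowest 82.7 TPM) and Tgfbr2 (highest 82.3 TPM) did not. Counting only protein-coding entries of the first, Smad4 (39.8 to 40.8 TPM) overlapped both Tgfb1 (40.5 to 43.5 TPM) and Ski (39.1 to 40.6 TPM). Levels in the second quantification were higher in general, by a median of 0.44, 0.32 and 0.39 (log2) over detected protein-coding genes in replicates 1, 2 and 3.

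No pathway gene passed a test of spread between the libraries. The test, edgeR's quasi-likelihood fit with an intercept only and Benjamini-Hochberg adjustment, set the spread of a gene's counts against that of genes of like abundance and called 75 of 13280 genes tested, or 0.565%. It called 0 of the 10 pathway genes, and DESeq2's marking of outlying dispersion, which met 0.941% of genes, also marked 0. At an unadjusted p below 0.05, which 5.69% of genes met, there was 1 of 10, Tgfbr1. Its estimated counts were 876, 597 and 697, replicate 1 being highest and replicate 2 lowest. The coefficient of variation of the scaled counts was 13.9%, where counting alone would give 3.72%. The edgeR test gave an unadjusted p of 0.0245 and an adjusted p of 0.743, and the adjusted p ran from 0.328 to 0.982 over the alternatives. Without replicate 1 the unadjusted p was 0.326, without replicate 2 it was 0.052 and without replicate 3 it was 0.00604. The adjusted p of the other 9 genes lay between 0.996 and 0.998. Replicate 2, the lowest for Tgfbr1, was the highest for the summed B-cell markers (15.6, 20.6 and 12.0 TPM in replicates 1, 2 and 3) and erythroid markers (55.6, 97.8 and 43.5 TPM), among which Hba-a2, an alpha globin gene, passed the spread test (edgeR adjusted p = 0.0321). It was the lowest for the summed monocyte and macrophage markers (47.2, 36.6 and 43.5 TPM) and platelet markers (7.40, 4.34 and 7.37 TPM). With 3 libraries, a shared order of libraries cannot tie a marker list to Tgfbr1. The part of the marked cells in the values of Tgfbr1 was not tested.

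With earlier results of these data known, 11 lists were chosen for the wider pathway, with 120 further genes. Of these, 79 were detected and 51 reached 10 TPM in all 3 libraries (44.7% and 25.4% over all protein-coding genes), 6 were at 0 throughout, and 0 of the 86 that entered the edgeR spread test were called. At an unadjusted p below 0.05 there were 9 of the 86 (Acvr1b, Cblb, Furin, Gata3, Gzma, Stub1, Tgif2, Usp11 and Zeb2), against 5.69% of all genes tested, and DESeq2 marked 1, Cblb, against 0.941%. Hgs, an endosomal adaptor, was left out of the lists because 2 gene identifiers carry its symbol. One of them (ENSMUSG00000025793.16) passed the spread test with an adjusted p of 0.0475 in edgeR, at 5.26, 2.17 and 6.03 TPM in replicates 1, 2 and 3, and the other was at 11.24, 11.93 and 10.94 TPM. This gene was named after its values were seen.

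Upstream of the receptors, 4 of 11 genes for storage and release of latent TGF-beta were detected. Nrros, which tethers latent TGF-beta on cells of the macrophage lineage, was at 31.2 ± 2.30 TPM (SD, n = 3), Furin, the protease that cuts the propeptide, at 22.8 ± 2.17 TPM and the integrin gene Itgav at 14.5 ± 1.84 TPM. Lrrc32, which encodes GARP, the tether of regulatory T cells, was at 3.25 ± 0.225 TPM. Itgb6 and Ltbp2, a partner of alpha V and a latent TGF-beta binding protein, were lowest at 0.0233 and 0.07 TPM. The second quantification had 5 of the 11 genes detected, and the tables differed most for Ltbp1, another latent TGF-beta binding protein gene, named after its values were seen. Ltbp1 was at 0.66, 0.65 and 0.64 TPM in the first and at 30.6, 23.6 and 22.0 TPM in the second quantification, so whether it is expressed depends on the table. Of 12 activin and BMP ligand genes, 2 were detected, Gdf11 at 3.72 ± 0.210 and Bmp7 at 1.49 ± 0.285 TPM, and 5 were at 0.

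Most receptor genes of the activin and BMP branches, and most SMAD genes outside the 10, were not detected or low. Acvr1b and Smad5 were exceptions. Of 12 receptor genes 5 were detected, Acvr1b (an activin type I receptor, 11.4 ± 1.42 TPM), Acvrl1 (5.55 ± 0.544), Eng (endoglin, 4.54 ± 0.181), Bmpr2 (1.17 ± 0.212) and Acvr2a (1.10 ± 0.0902). Acvr1b, at 12.05, 9.80 and 12.43 TPM, lay above Tgfbr1 in each library of the first quantification. In the second, Acvr1b (14.8, 10.9 and 14.5 TPM) lay below Tgfbr1 (17.5, 11.7 and 15.3 TPM) in each library. Bmpr1b was at 0. Of the 4 other SMAD genes, Smad5 (18.9 ± 2.11 TPM) and Smad1 (4.53 ± 0.306 TPM), which act for BMP receptors, were detected. The Smad5 values of the first quantification, 18.33, 17.09 and 21.21 TPM, overlapped those of Smad2 and Smad3. Every Smad5 value of the second (23.7, 19.7 and 23.9 TPM) lay below those of Smad2 (lowest 29.99 TPM) and Smad3 (lowest 26.8 TPM). The inhibitory Smad6 (0.03 TPM) and the BMP-activated Smad9 (0.01 TPM) were not detected. Smad7 was therefore the inhibitory SMAD gene detected in these libraries.

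Genes that act on the receptors and SMADs were mostly detected. Of 11 adaptor genes 8 were, led by Fkbp1a (54.9 ± 2.49 TPM), which holds the type I receptor inactive, the SMAD phosphatase gene Ppm1a (38.6 ± 1.73 TPM), Strap (31.3 ± 3.04 TPM) and Snx6 (20.8 ± 2.03 TPM). Zfyve9 (SARA) and Cd109 were lowest at 0.07 and 0.00667 TPM. All 14 genes for ubiquitin ligases, deubiquitinases and their partners were detected and 11 reached 10 TPM. Cblb, a ligase gene that restrains T-cell activation, led at 70.8 ± 11.9 TPM, followed by the deubiquitinase genes Usp4 (53.0 ± 0.525), Usp9x (45.6 ± 1.37) and Usp15 (41.9 ± 3.35). The lowest were Wwp1 at 6.96 and Rnf11 at 5.28 TPM.

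In the nucleus, 17 of 18 SMAD partner genes were detected and 15 reached 10 TPM, with a median of 35.5 TPM near the 30.4 TPM of the 10 pathway genes. Ncor1, a corepressor with which SKI works, was highest at 152 ± 7.25 TPM (SD, n = 3), followed by Zeb1 (67.5 ± 4.84) and the acetyltransferase genes Crebbp (50.4 ± 2.82) and Ep300 (49.6 ± 2.92). Zeb2 (3.99 TPM) and Foxh1 (0.0467 TPM), the latter a partner of SMADs in the embryo, were lowest. All 16 genes of the SMAD-independent branch were detected and 12 reached 10 TPM, with the GTPase genes Cdc42 (132 ± 4.60) and Rhoa (119 ± 4.51) highest, then Rock1 (41.9 ± 2.12) and Pak2 (40.8 ± 1.67), and Map2k6 (5.13) and Pard6a (4.24 TPM) lowest.

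**Figure D5:**
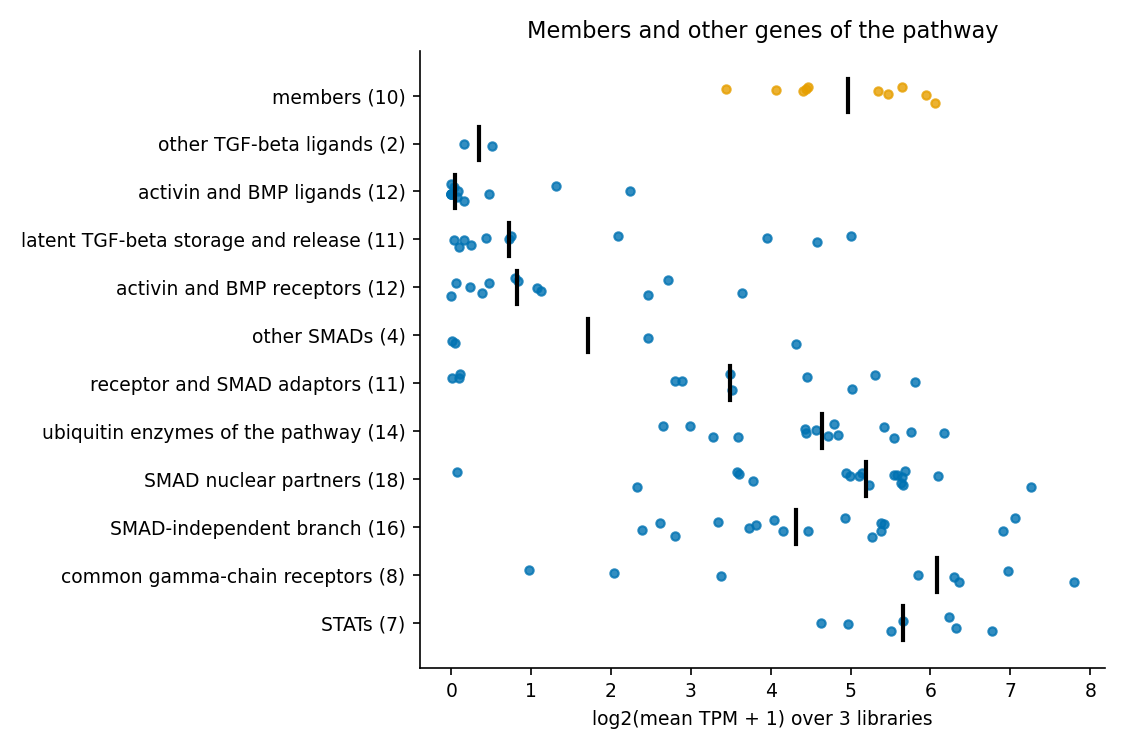
Mean level of single genes (points, log2(TPM + 1), n = 3 libraries) in the 10 pathway genes and in 11 further lists, with the number of genes in brackets and the list's median as a bar. The lists shown include common gamma-chain receptors and STATs, which are not pathway lists. Genes that TGF-beta induces or restrains are not shown. Activin and BMP ligands and receptors lie mostly below 1 TPM, while SMAD partners and ubiquitin enzymes reach the levels of the 10 genes, with medians of 35.5 and 24.1 TPM.

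Genes known to respond to TGF-beta, in T cells or in other cells, were present in both directions of response. Of 14 genes that TGF-beta induces, 8 were detected, among them Smad7 and Skil of the 10 genes above, Tgif1 (33.5 ± 2.51 TPM, SD, n = 3) and Itgae (CD103 of tissue-resident cells, 11.5 ± 0.320 TPM). Cdkn2b, a cell-cycle inhibitor gene induced in epithelial cells, was at 0.05 TPM. Of 11 genes that it restrains, 8 were detected, with Myc (42.6 ± 1.97), the granzyme gene Gzma (31.6 ± 6.51), Gata3 (26.8 ± 2.93) and the perforin gene Prf1 (15.7 ± 1.17 TPM) highest, and Il4 (1.07 TPM) and Il2 (0.12 TPM) lowest. The counts depend on the table, since the second quantification had 9 of the 14 and 10 of the 11 genes detected. With 1 untreated group, no response to TGF-beta can be read from these levels.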

How the data were processed

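The members and all gene lists were chosen with earlier results of these data known. Estimated counts, TPM and FPKM were deposited per library in gene and transcript tables, per the file headers, from transcriptome alignments to mm10 with GENCODE M21. The authors' second transcript table (estimated counts, TPM) came from the reads against an index and was summed per gene. No source used here gives the aligner or the quantifiers. The protocol in the labels names a directional kit. Posterior means and bounds were also deposited, and reads went to 1 reference genome, so parental alleles were not analysed here.

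Numbered entries that name no gene and spike-ins were left out. Estimated counts were rounded for edgeR 4.0.16 (filterByExpr, TMM, robust, intercept only) and DESeq2 1.42.0 in R 4.3.3, with adjusted p of 0.05 as the threshold. The edgeR step was also run on simulated data with the same dispersion for all genes. That run does not show how small a spread the test would find in the pathway genes. Other values were computed in Python 3.11.15. Inclusion is the TPM share of entries with a segment among entries that span it. In each list the 4 highest and 2 lowest genes, and genes passing the spread test, are named, except for some that are not reported here. Coordinates are 1-based. Tried as alternatives were FPKM, the second quantification, TMM-scaled counts (CPM), posterior mean TPM, coding entries only, a pseudocount of 0.1, other filters and detection thresholds, DESeq2 size factors, leaving out each replicate and a non-robust trend.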

Additional observations from a re-analysis of the deposited data

How the results depend on the processing

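Of the 82 alternatives to the gene-pair differences, 2 turned the direction, both for Smad3 against Smad2, at 0.0426 (log2) with posterior mean TPM and 0.413 with TMM-scaled CPM, which is not divided by length, against -0.04. The cause was not tested for the first, and the second compares counts of genes of different length. Without each replicate that difference was -0.08 to -0.00348, and the other pairs kept the direction of their mean. The median protein-coding share of the 10 genes, 93.6% of TPM, was 89.7% in the second quantification (the cause was not tested) and 99.3% of estimated counts, which weigh long entries more. No pathway gene was called for spread under any alternative, although the number of all genes called, 75, was 303 without a filter, 28 with a non-robust fit and 35 to 85 without each replicate. No paired analysis was possible because all libraries form 1 group. Depth limits the genes near 0: a count of 0 allows up to 3 counts, for counting error only, and Tgfb2 rests on 17, 6 and 6 estimated counts and Tgfb3 on 7, 6 and 5 in replicates 1, 2 and 3. The exact sign-flip permutation test cannot go below p = 0.25 with 3 libraries.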

Other observations

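Receptor and transducer genes of a cytokine family that T cells depend on had higher median levels than the TGF-beta pathway genes. Of 8 genes for receptors built around the common gamma chain, 7 were detected and 5 reached 10 TPM in all 3 libraries, with a median of 66.9 TPM. Il2rg, the shared chain, was at 221 ± 10.9 TPM (SD, n = 3), Il7r, the receptor chain for the survival cytokine IL-7, at 124 ± 7.28 TPM, Il4ra at 81.3 ± 9.05 TPM and Il2rb at 77.2 ± 8.24 TPM. Il15ra (3.11 TPM) and Il9r (0.967 TPM) were lowest. All 7 genes of the STAT family, transducers of cytokine receptors of several families, reached 10 TPM, among them Stat3 at 78.5 ± 10.2 TPM, Stat6 at 74.1 ± 4.87 TPM and Stat4 at 49.4 ± 2.76 TPM, with Stat5a at 30.3 TPM and Stat2 at 23.8 TPM lowest. The medians were 49.4 TPM for the STAT genes and 30.4 TPM for the 10 TGF-beta pathway genes, and the difference between the lists was not tested.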
